A study of Mus musculus with 5 samples.

Results

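The levels of 7 genes of the cyclic AMP (cAMP) pathway were followed in CD8+ T cells recovered from mouse tumors. The genes were the prostaglandin E2 receptor genes Ptger2 and Ptger4, the phosphodiesterase genes Pde4b and Pde4d, the cAMP response factor genes Crem and Creb1, and Prkar1a, which encodes a regulatory subunit of protein kinase A (PKA). The members were chosen by symbol, and all 7 were among the 23337 genes counted in each library and among the 11299 tested. The T cells came from OT-I mice of the strain C57BL/6J CD45.1, aged 6 to 12 weeks, which carry a transgenic T cell receptor for a peptide of ovalbumin. They were activated in culture with antibodies against CD3 and CD28, kept in interleukin-2 until day 5 or 6, and injected into mice with a B16-OVA melanoma. The Control IgG group received an anti-KLH rat IgG2b and the anti-PD-L1 group the clone 10F.9G2, which blocks the ligand of PD-1, at 200 µg per mouse 3 and 6 days after transfer. Both groups therefore shared the transgenic receptor, the methods of culture and transfer and the tumor model. A shared batch of culture or transfer does not follow from this. The harvest was on day 8 in both groups. The age of the recipients is not stated in the labels. There were 3 Control IgG and 2 anti-PD-L1 libraries, each from live CD8+ CD45.1+ cells sorted from the pooled tumors of several mice, so a value describes a pool.

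Cyclic AMP is a second messenger that restrains T cell activation. Receptors coupled to the stimulatory G protein, among them the prostaglandin E2 receptors EP2 and EP4 and receptors of adenosine, switch on adenylyl cyclase. The cAMP it makes releases the catalytic subunits of PKA from their regulatory subunits, and PKA phosphorylates, among other proteins, the transcription factor CREB1. Phosphodiesterases of the PDE4 family break cAMP down again. CREB1 acts on cAMP response elements, and the Crem gene also makes the short repressor ICER from an internal promoter, which closes a feedback loop.

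The libraries held 9985943 to 12830485 counts assigned to genes. Levels are given as CPM, read counts normalised to library size, after TMM, a scaling that corrects for library composition. Fewer genes were detected in the libraries numbered 1, 11696 for Control IgG and 11977 for anti-PD-L1, than in the remaining 3, where 13564 to 13801 were. These 2 libraries stand apart, so fold changes of the members are also given without both. Pdcd1, the gene of PD-1, stood at 660 to 739 CPM in controls and at 1350 and 841 CPM after anti-PD-L1. Its log2 fold change of anti-PD-L1 over Control IgG was 0.65 ± 0.27 (SE), which did not pass the edgeR test, at an adjusted p of 0.9999. Cd8a, a defining gene of CD8+ T cells, stood at 1404 to 2163 CPM. Of 8 markers of these cells 7 were listed, and their summed level, scaled by library totals, ran from 6114 to 7738 CPM. Markers of other cell types were present at low and uneven levels. The summed level of 7 melanoma markers, led by Pmel, was 4.03, 300 and 95.1 CPM in Control IgG replicates 1, 2 and 3, and 40.1 and 103 CPM in anti-PD-L1 replicates 1 and 2. That of 9 macrophage and monocyte markers, led by Lyz2, was 191, 137 and 79.2 CPM in the controls and 77.0 and 122 CPM after anti-PD-L1. Summed levels of the other lists were 23.1 to 53.7 CPM for dendritic cells (led by Itgax) and 11.5 to 24.7 CPM for CD4+ T cells (Cd40lg). They were 2.10 to 12.9 CPM for neutrophils and mast cells (Cxcr2) and 1.30 to 6.49 CPM for B cells (Cd79b). Natural killer cells had 9.01 to 16.3 CPM (Tyrobp), and fibroblasts and endothelium 28.5 to 58.3 CPM (Pecam1). In the CD4+ T cell list, Cd4 itself stood at 0 to 1.30 CPM, Foxp3 at 2.52 to 6.51 CPM and Cd40lg at 7.08 to 21.9 CPM. In the natural killer list, Ncr1 stood at 0 to 0.234 CPM, Klrb1c at 2.20 to 5.03 CPM and Tyrobp at 6.33 to 12.0 CPM. Markers at 0 in every library included Pax5 (B cells), Klra8 and Klra4 (natural killer cells), S100a9 and Mcpt4 (neutrophils and mast cells), and Col3a1, Dcn, Cdh5 and Kdr (fibroblasts and endothelium).

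The comparison asked whether PD-L1 blockade was accompanied by a different level of these genes. None of the 7 passed an adjusted p of 0.05 in edgeR's quasi-likelihood test, each with an adjusted p of 0.9999, where the share called over all tested genes was 0%. Without adjustment, 0 of 7 passed 0.05 as well, beside 1.19% of all genes called higher and 0.947% called lower after anti-PD-L1. These shares are 134 and 107 genes, and scaling by library totals alone gave 116 and 166. Leaving out anti-PD-L1 replicate 1 gave 43 and 20, leaving out anti-PD-L1 replicate 2 gave 476 and 651, and leaving out Control IgG replicate 2 gave 58 and 65. DESeq2 called 0 of the 7 and 0.0265% of all genes, and limma-voom called 0 of the 7. The 2 anti-PD-L1 libraries lay above all controls for 0 of the 7 members and below all controls for 0, against 7.74% and 9.58% of all tested genes. Fold changes here and below are of anti-PD-L1 over Control IgG on the log2 scale. Those of 4 members were above 0 and those of 3 below, with a median of 0.11 beside -0.02 over all tested genes. A member had 194 to 10476 counts in a library. Copies made by PCR count as separate reads, so the error from sampling RNA molecules is not known from these counts. The plot of CPM by library shows the overlap of the groups for each gene.

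**Figure D1:**
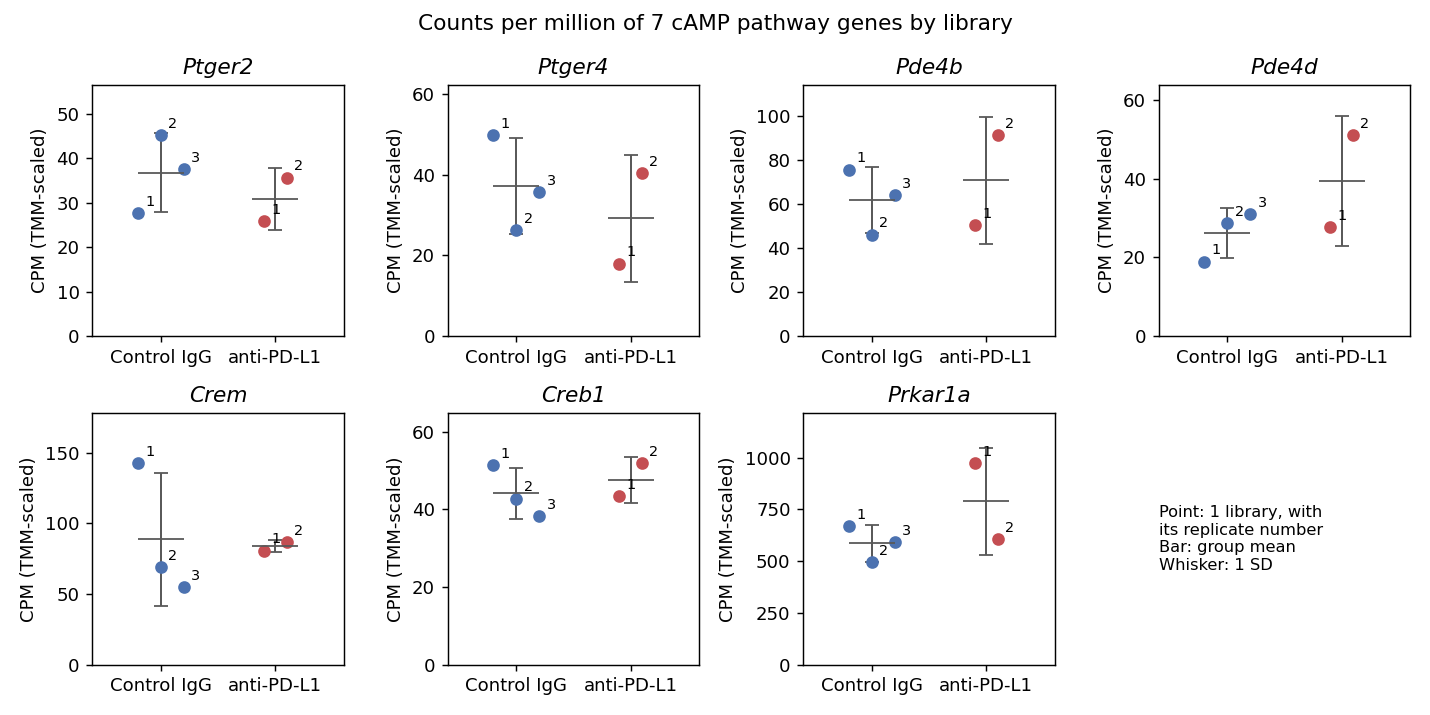
CPM of the 7 cAMP pathway genes (vertical axes from 0, 1 panel a gene) in 3 Control IgG and 2 anti-PD-L1 libraries. Each point is 1 library with its replicate number, the bar is the group mean and the whisker 1 SD. In every panel the ranges of the groups overlap, and in 6 panels anti-PD-L1 replicate 2 lies above replicate 1, with Prkar1a the exception.

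The receptors that raise cAMP come first. Ptger2, which encodes EP2, stood at 27.6, 45.2 and 37.7 CPM in Control IgG replicates 1, 2 and 3 and at 25.9 and 35.7 CPM in anti-PD-L1 replicates 1 and 2. Both libraries numbered 1 were low, and anti-PD-L1 replicate 2 lay among the controls. Control IgG replicate 2, with the highest Ptger2, also had the highest sum of melanoma markers, 300 CPM, and whether the one bears on the other was not tested. The means were 36.8 ± 8.82 CPM (SD, n = 3) and 30.8 ± 6.95 CPM (SD, n = 2), with a log2 fold change of -0.26 ± 0.33 (SE, 95% interval -1.01 to 0.49). That of Ptger2 was -0.23 ± 0.30 (SE) without both libraries numbered 1, -0.05 without anti-PD-L1 replicate 1, -0.48 without replicate 2, -0.43 without Control IgG replicate 1 and -0.08 without Control IgG replicate 2. Ptger4, which encodes EP4, stood at 49.7, 26.3 and 35.7 CPM in the controls and at 18.0 and 40.3 CPM after anti-PD-L1. Anti-PD-L1 replicate 1 was the lowest of the 5 libraries, whereas replicate 2 lay between the controls. Its log2 fold change was -0.35 ± 0.43 (SE, 95% interval -1.33 to 0.63). It was -1.02 without anti-PD-L1 replicate 2, 0.11 without replicate 1 and 0.36 ± 0.31 (SE) without both libraries numbered 1, so its direction turned with the library left out. Ptger4 shares exonic sequence with Ttc33 on the opposite strand, and the library chemistry does not mark strand, so reads of the pair cannot be told apart there. The exons of Ptger2 likewise overlap those of Gm49364 and Gm17173, and the exons of Ptger4 those of Gm15937. These overlaps are also with the opposite strand, and these predicted genes were not among the genes counted. In pooled cells, fewer cells that express a gene and less RNA per cell cannot be told apart either, here and below.

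Other receptors of the pathway ranged from steady to widely scattered levels. Adora2a, the gene of an adenosine receptor of high affinity, was steady, at 143, 114 and 144 CPM in controls and 115 and 165 CPM after anti-PD-L1. Its log2 fold change was 0.07 ± 0.26 (SE). Adora2b, the low-affinity adenosine receptor, was at 0, 2.24 and 1.84 CPM in controls and at 6.95 and 4.55 CPM after anti-PD-L1. Vipr2, a receptor of vasoactive intestinal peptide, was at 0, 0.934 and 0.613 CPM in controls and at 3.43 and 1.34 CPM after anti-PD-L1. For both genes every control was under the lower anti-PD-L1 library, and the fold changes of 2.07 ± 1.22 (SE) and 2.18 ± 1.37 (SE) did not pass the edgeR test, at an adjusted p of 0.9999. These are low levels, with 75 counts or fewer of Adora2b and 37 or fewer of Vipr2 in a library, and Vipr2 had at most 10 counts in a control, so that it passed the low-count filter through the libraries in which it was high. Without both libraries numbered 1, Adora2b had 1.14 and Vipr2 0.79. By a floor of 3 counts, the counts of 0 in Control IgG replicate 1 allow up to 0.268 CPM, for counting error only. Of 13 receptors coupled to the stimulatory G protein, 8 were tested and 0 passed in edgeR, with or without adjustment, or in DESeq2. The 4 receptors coupled to the inhibitory G protein, including Ptger3 (EP3), were under the filter in these cells.

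Both phosphodiesterase members were highest in anti-PD-L1 replicate 2 and were not high in replicate 1. Pde4b stood at 75.7, 46.1 and 64.0 CPM in the controls and at 50.4 and 91.2 CPM after anti-PD-L1. The highest library was 1.81 times replicate 1, while replicate 1 was near the lowest control. The log2 fold change was 0.19 ± 0.34 (SE, 95% interval -0.59 to 0.97). Without anti-PD-L1 replicate 2 it turned to -0.27, and without both libraries numbered 1 it was 0.71 ± 0.28 (SE). Pde4d stood at 19.0, 28.8 and 31.0 CPM in the controls and at 27.6 and 51.0 CPM after anti-PD-L1. Replicate 2 was again the highest, 1.85 times replicate 1, and replicate 1 lay inside the control range. Pde4d had the largest fold change of the 7, 0.58 ± 0.37 (SE, 95% interval -0.26 to 1.43). Its control mean was 26.2 ± 6.40 CPM (SD, n = 3), and its mean after anti-PD-L1 was 39.3 ± 16.5 CPM (SD, n = 2). It kept its direction under each of the 12 alternatives that were run, at 0.10 without anti-PD-L1 replicate 2, 0.96 ± 0.39 (SE) without replicate 1 and 0.76 ± 0.29 (SE) without both libraries numbered 1. The last setting compares 2 controls with a single anti-PD-L1 library, so only its fold changes are given. No member passed an adjusted p of 0.05 under any of the 12 alternatives.

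Of 12 other phosphodiesterase genes that act on cAMP, 7 were tested. The median log2 fold change of these 7 was 0.01. All 7 were higher in anti-PD-L1 replicate 2 than in replicate 1, like Pde4b and Pde4d, whereas 52.7% of all tested genes were. In replicate 1, Pde1b had 0 counts, Pde8a 4, Pde4c 5 and Pde2a 10, whereas Pde4a, Pde7a and Pde3b had 116, 148 and 344. Fewer genes were detected in that library than in replicate 2, and whether that bears on these genes was not tested. Pde4a, another gene of the PDE4 family, stood at 2.41, 10.2 and 9.51 CPM in controls and at 10.8 and 13.1 CPM after anti-PD-L1, with Control IgG replicate 1 far below the rest. Its fold change was 0.70 ± 0.61 (SE), and 0.28 without that library. Pde8a stood at 0.371 to 1.79 CPM, with a log2 fold change of -0.49 ± 1.16 (SE).

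Prkar1a, the type I alpha regulatory subunit that holds PKA inactive until cAMP binds, was the member of highest level. It stood at 671, 493 and 594 CPM in the controls and at 971 and 607 CPM after anti-PD-L1. Here anti-PD-L1 replicate 1, not replicate 2, was the highest library, and replicate 2 lay between the controls. The means were 586 ± 88.9 CPM (SD, n = 3) and 789 ± 257 CPM (SD, n = 2), a log2 fold change of 0.43 ± 0.28 (SE, 95% interval -0.22 to 1.08). It was 0.05 without anti-PD-L1 replicate 1, 0.76 ± 0.29 (SE) without replicate 2 and 0.15 ± 0.21 (SE) without both libraries numbered 1, and kept its direction under the 12 alternatives. The same library was the highest for Prkacb and Pkig, the PKA genes of smallest p. Prkacb, a catalytic subunit, stood at 45.1, 50.8 and 81.4 CPM in controls and at 121 and 78.0 CPM after anti-PD-L1, with a fold change of 0.75 ± 0.34 (SE). Pkig, an inhibitor of the catalytic subunits, stood at 3.31, 8.03 and 7.28 CPM in controls and at 17.3 and 10.4 CPM after anti-PD-L1, both above every control, with a fold change of 1.15 ± 0.51 (SE). Neither passed, at an edgeR adjusted p of 0.9999. Without anti-PD-L1 replicate 1 the fold change was 0.40 for Prkacb and 0.75 for Pkig, and without both libraries numbered 1 it was 0.22 and 0.43. Of 8 PKA subunit and inhibitor genes beside Prkar1a, 6 were tested, 4 with a fold change above 0 and 2 below.

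The cAMP response factors differed from each other in how much they varied. Crem stood at 142, 68.9 and 54.8 CPM in the controls and at 80.8 and 86.9 CPM after anti-PD-L1. Control IgG replicate 1 was the highest library and Control IgG replicate 3 the lowest, so both anti-PD-L1 libraries lay inside the control range. The log2 fold change was -0.08 ± 0.40 (SE, 95% interval -1.01 to 0.84), but 0.44 without Control IgG replicate 1 and 0.48 ± 0.27 (SE) without both libraries numbered 1. Control IgG replicate 1 was also the library with the highest summed level of macrophage and monocyte markers, 191 CPM against 77.0 to 137 CPM in the others, and with the lowest sum of melanoma markers, and the part of either in the level of Crem was not tested. Crem has 39 annotated transcripts in GENCODE vM21, and the count per gene does not separate activator forms from ICER. Its exons also overlap those of Gm6225 on the opposite strand. Creb1 stood at 51.3, 42.8 and 38.3 CPM in the controls and at 43.3 and 51.8 CPM after anti-PD-L1. It was the steadiest member, with 1.35-fold between its highest and lowest library, and had a log2 fold change of 0.11 ± 0.27 (SE, 95% interval -0.51 to 0.73), or 0.34 ± 0.29 (SE) without both libraries numbered 1. With 1 library left out the fold change of Creb1 was lowest when anti-PD-L1 replicate 2 was left out, at 0.0037, and highest when either library numbered 1 was, at 0.23. It was 0.015 without Control IgG replicate 3.

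**Figure D2:**
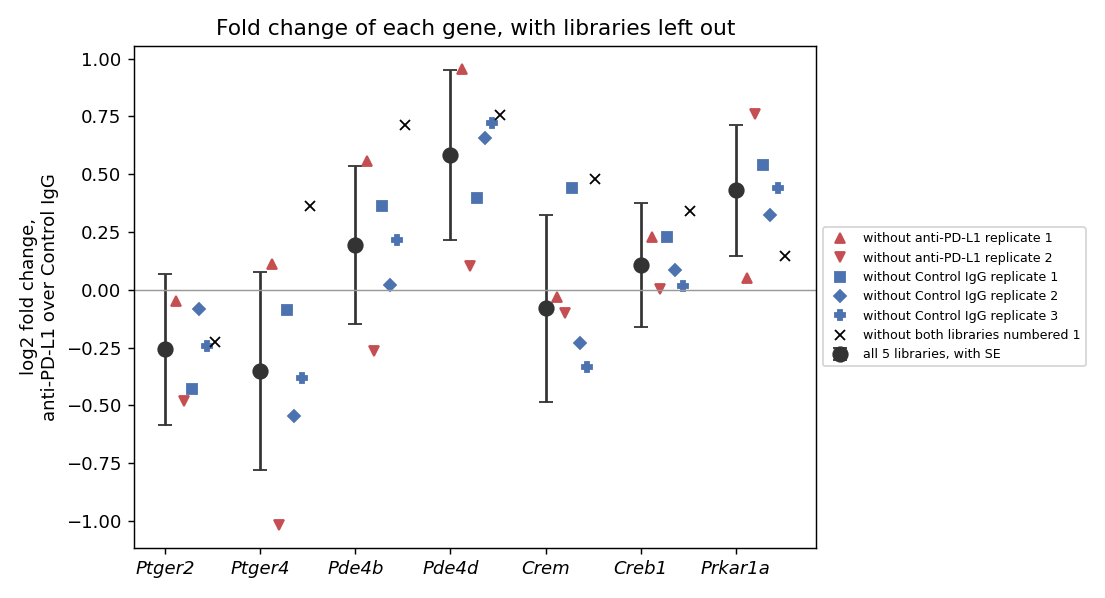
Log2 fold change of anti-PD-L1 over Control IgG for each of the 7 genes (vertical axis), from all 5 libraries (dark circle, with its SE) and with libraries left out (symbols in the key). Ptger4, Pde4b and Crem have symbols on both sides of 0. In each fit shown, Pde4d, Prkar1a and Creb1 lie above 0 and Ptger2 lies below it.

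Among cofactors and targets of CREB, the medians of the 2 anti-PD-L1 libraries lay on opposite sides of the control mean. Of the 9 tested genes of the CREB family, its coactivators and the SIK kinases that restrain them, 0 passed, 2 had a fold change above 0 and 7 below. Relative to the control mean on the log2 scale, their median was -0.55 for the anti-PD-L1 library numbered 1 and 0.43 for the one numbered 2, and all 9 were higher in replicate 2. Crtc1, a coactivator released when PKA inhibits the SIK kinases, stood at 24.4, 25.0 and 23.4 CPM in controls and at 10.4 and 19.5 CPM after anti-PD-L1, below every control, with a fold change of -0.70 ± 0.37 (SE) that was -0.32 without replicate 1 and -1.19 without replicate 2. Crtc2 stood at 37.9 to 42.7 CPM in controls and at 26.9 and 42.2 CPM after anti-PD-L1, so replicate 2 lay within the controls. The list of CREB-responsive genes held 14 genes that CREB is known to induce in various cell types, many of which other signals induce as well, and 13 were tested. Their median on the same scale was -0.79 after anti-PD-L1 for replicate 1 and 0.76 for replicate 2, against 0.36, -0.07 and -0.22 in Control IgG replicates 1, 2 and 3. Of the 13, 12 were higher in replicate 2 than in replicate 1, beside 52.7% of all tested genes.

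Nr4a1, Dusp1 and Fos, chosen after their values were seen, give the size of that gap. Nr4a1, an orphan nuclear receptor induced by T cell receptor signals and by cAMP, stood at 969, 571 and 530 CPM in the controls and at 190 and 1091 CPM after anti-PD-L1. Dusp1, a phosphatase of MAP kinases, stood at 468, 302 and 267 CPM in the controls and at 130 and 519 CPM after anti-PD-L1. Fos, a subunit of AP-1, stood at 562, 308 and 327 CPM in the controls and at 156 and 447 CPM after anti-PD-L1. For each of them anti-PD-L1 replicate 1 was the lowest library of all, at least 2.87 times below replicate 2. Replicate 2 was above all controls for Nr4a1 and Dusp1, and the group fold changes of these 2 genes were -0.11 ± 0.62 (SE) and -0.09 ± 0.53 (SE). Nfil3 and Per2, the 2 of the list with the smallest p, had log2 fold changes of 0.34 ± 0.23 (SE) and -1.18 ± 0.89 (SE), while that of Per2 was -0.37 when anti-PD-L1 replicate 1 was left out and -3.31 when replicate 2 was. Nfil3 was the exception to the gap, at 114 CPM in replicate 1 and 104 CPM in replicate 2. Anti-PD-L1 replicate 1 also had the smallest share of reads outside annotated genes, 7.46%, against 15.2% in replicate 2, and whether that bears on the gap was not tested.

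**Figure D3:**
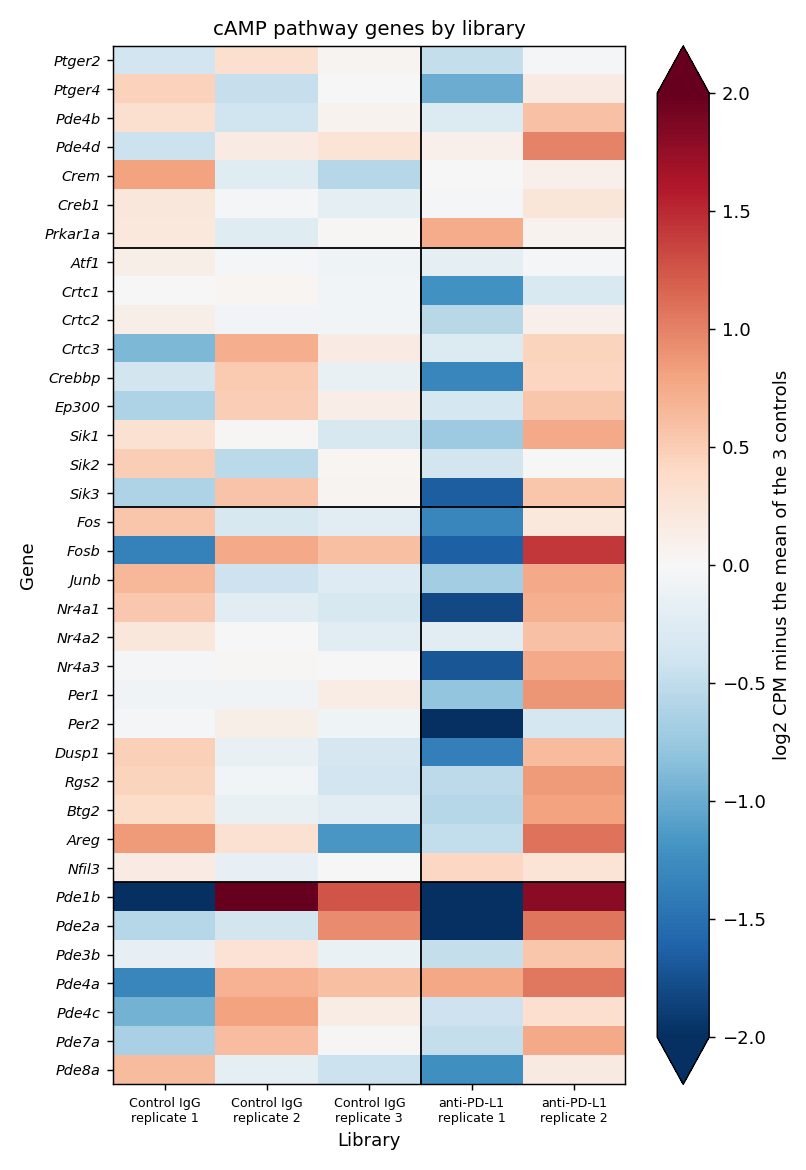
Log2 CPM minus the mean of the 3 controls (colour, cut at -2 and 2) for the 7 members and the tested CREB family, CREB-responsive and phosphodiesterase genes (rows, parted by black lines) in the 5 libraries (columns). The column of anti-PD-L1 replicate 1 is mostly blue and that of replicate 2 mostly red among the 13 CREB-responsive genes, where the medians are -0.79 and 0.76.

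The promoters of these genes show which of them carry the letters of a cAMP response element near a start site. RefSeq promoter windows on GRCm38.p6, reaching from 250 bases before a start site to 50 bases after it, were searched on both strands for the full palindrome TGACGTCA and for its 5-base parts TGACG and CGTCA, both of which the palindrome contains. The palindrome was present in 1.79% of 32851 windows of all genes and a 5-base part in 20.8%. Of the members, 6 had a window, 14 windows in all. Crem had none, so its promoters, that of ICER among them, were not searched. Prkar1a held the palindrome in 2 overlapping windows of its 6, and Pde4b held a 5-base part in 1 of its 4, while the single windows of Ptger2, Ptger4, Pde4d and Creb1 held neither. All 13 of the CREB-responsive genes with a window held a 5-base part and 3 of them, Areg, Btg2 and Dusp1, the palindrome. That list was made of genes that CREB is known to induce, so these counts describe the list and test nothing. The windows of 3 genes are shown because they belong to the member with the palindrome and to 2 targets with a wide gap between the anti-PD-L1 libraries. Capitals mark each 5-base part or palindrome, 5′ to 3′ on the strand of the gene. The window of Prkar1a is chr11:109650699-109650998 on the plus strand, with the palindrome starting 49 bases before the start site. That of Dusp1 is chr17:26508423-26508722 on the minus strand, with the palindrome 143 bases before the start site. That of Nr4a1 is chr15:101266596-101266895 on the plus strand, with 4 matches to a 5-base part and no palindrome.
Prkar1a: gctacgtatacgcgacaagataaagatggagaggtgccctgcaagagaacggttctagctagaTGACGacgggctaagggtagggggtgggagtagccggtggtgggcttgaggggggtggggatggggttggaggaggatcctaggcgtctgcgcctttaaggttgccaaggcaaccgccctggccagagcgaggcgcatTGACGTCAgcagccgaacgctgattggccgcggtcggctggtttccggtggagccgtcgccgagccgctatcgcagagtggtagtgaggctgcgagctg
Dusp1: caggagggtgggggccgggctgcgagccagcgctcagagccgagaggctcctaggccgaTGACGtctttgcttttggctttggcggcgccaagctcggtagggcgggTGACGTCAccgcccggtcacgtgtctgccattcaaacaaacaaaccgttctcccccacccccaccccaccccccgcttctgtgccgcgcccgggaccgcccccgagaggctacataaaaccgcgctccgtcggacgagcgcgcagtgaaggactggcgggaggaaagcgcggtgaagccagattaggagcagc
Nr4a1: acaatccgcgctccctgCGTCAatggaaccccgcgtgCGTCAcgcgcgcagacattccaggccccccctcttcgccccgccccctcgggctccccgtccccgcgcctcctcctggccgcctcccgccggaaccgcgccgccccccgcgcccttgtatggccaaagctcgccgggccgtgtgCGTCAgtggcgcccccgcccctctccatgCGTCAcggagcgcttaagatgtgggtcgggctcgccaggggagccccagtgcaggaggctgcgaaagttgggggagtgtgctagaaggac
Dusp1 and Nr4a1 were lowest in anti-PD-L1 replicate 1, as given above, whereas Prkar1a was highest there. The letters describe these windows only, and binding was not measured.

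Levels of different genes can be compared once divided by exon length. In the controls, Prkar1a had 136 ± 20.6 CPM per kilobase of exon (SD, n = 3), followed by Crem at 15.0 ± 7.98, Ptger2 at 7.09 ± 1.70, Pde4b at 5.86 ± 1.41, Ptger4 at 5.60 ± 1.78, Creb1 at 3.21 ± 0.48 and Pde4d at 2.19 ± 0.53. The control ranges of Ptger2, Pde4b and Ptger4 overlapped their neighbours in this order, so these 3 are not ranked among themselves, and the ranges of the other neighbours did not overlap. Of the other receptors Adora2a, at 43.6 ± 5.62 CPM per kilobase, was above both prostaglandin E2 receptors in each control library. These lengths join the exons of every annotated transcript, which understates the level of a gene whose short forms prevail. The members lay on chromosomes 14 (Ptger2, from 44988195 to 45003820), 15 (Ptger4, from 5206661 to 5244187), 4 (Pde4b, from 102087543 to 102607259), 13 (Pde4d, from 108449948 to 109953461), 18 (Crem, from 3266048 to 3337748), 1 (Creb1, from 64532645 to 64604548) and 11 (Prkar1a, from 109649405 to 109669656) of GRCm38, so that no 2 share a chromosome.

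**Figure D4:**
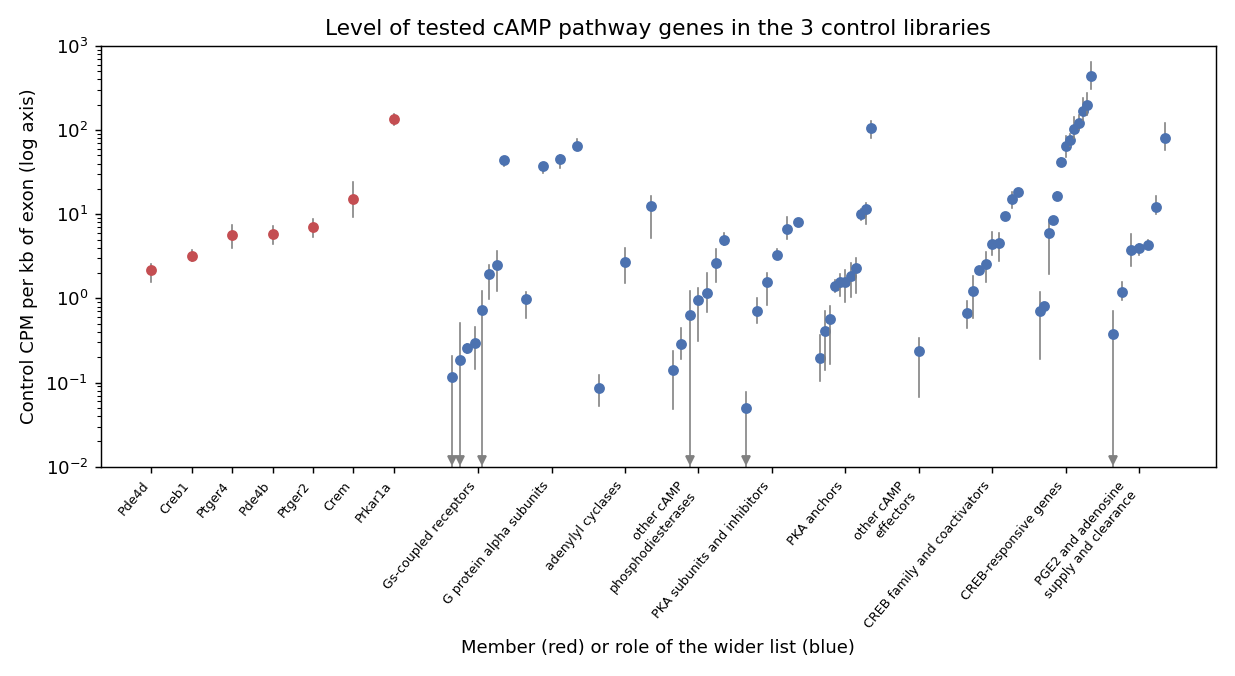
CPM per kilobase of exon in the 3 control libraries (vertical log axis) for the 7 members (red) and the tested genes of each role of the wider list (blue). Points are means and lines run from the lowest to the highest library, with an arrow where a library lies under 0.01. Prkar1a, at 136, lies far above the other members, which run from 2.19 to 15.0.

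The profiles nearest to those of the members, by the root mean square difference of centred log2 CPM over the 5 libraries among 7637 genes, are given as a description. They were Cluap1 (0.03) and Fam58b (0.04) for Ptger2, Nars2 (0.11) and Wdr46 (0.13) for Ptger4, and Bhlhe40 and Tsc22d3 (both 0.08) for Pde4b. For Pde4d they were Rreb1 (0.08) and Tle3 (0.10), for Crem Pyroxd1 (0.07) and Tyrobp (0.10), for Creb1 Mpv17 and Tg (both 0.04), and for Prkar1a Tspan31 (0.04) and Ilk (0.05). No gene stood in the pairs of 2 members.

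The wider pathway gave few values beyond those of the members. Of 103 listed genes, 34 were under the filter, 17 of them with 0 counts in every library, and 69 were tested. None of the 69 passed over all genes, 39 had a fold change above 0 and 30 below, and the median was 0.10. At an unadjusted p under 0.05 there was 1, beside the 1.19% and 0.947% of all tested genes called higher and lower. It was Entpd1, which encodes the ectonucleotidase CD39 that starts the making of adenosine from ATP. Entpd1 stood at 56.4, 58.0 and 91.3 CPM in controls and at 277 and 76.3 CPM after anti-PD-L1, so replicate 1 alone was above the controls, and the fold change was 1.37 ± 0.49 (SE). It was 0.15 without anti-PD-L1 replicate 1, 2.05 without replicate 2 and 0.015 without both libraries numbered 1. Nt5e, which encodes CD73, the next enzyme on that path, stood at 8.94, 13.6 and 8.13 CPM in controls and at 8.72 and 18.3 CPM after anti-PD-L1. The anti-PD-L1 libraries were both higher than every control for 8 of the 69 and both lower for 4, with Vipr2 among the 8, beside the 7.74% and 9.58% of all tested genes given above.

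Between the receptors and PKA stand the G proteins and the cyclases. Gnai3, an inhibitory alpha subunit, had a log2 fold change of 0.43 ± 0.28 (SE), and Gnal, a stimulatory one, 0.20 ± 0.46 (SE). That of Gnai3 was 0.08 without anti-PD-L1 replicate 1. Of 10 adenylyl cyclase genes only Adcy3, Adcy6 and Adcy7 were tested. Adcy7 stood at 35.6, 110 and 108 CPM in controls and at 55.2 and 110 CPM after anti-PD-L1, so that both libraries numbered 1 were low, and Adcy6 lay under 1 CPM in every library. Of the anchors that hold PKA in place, Akap8 stood at 84.4, 73.9 and 101 CPM in controls and at 56.6 and 69.6 CPM after anti-PD-L1, below every control, with a fold change of -0.46 ± 0.26 (SE), and Akap12 had 0.54 ± 0.44 (SE), or 0.09 without anti-PD-L1 replicate 1. Rapgef4, the exchange factor EPAC2 that cAMP binds directly, stood at 0.371 to 2.24 CPM.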

How the data were processed

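RNA of 5000 to 30000 sorted cells was amplified by a modified Smart-seq2 protocol, per the labels, which keeps neither strand nor molecular identity, so copies made by PCR count as separate reads. The deposited values are raw counts of reads per gene symbol. TopHat, HTSeq and the build mm10 are named, per the submitters' processing notes, and the sources used here give no versions, annotation or strand setting. Counter lines for reads outside genes (7.46% to 15.2% of counts) and ambiguous reads (1.38% to 1.51%) were left out. No 2 libraries were copies, with a chi-square per degree of freedom of 19.2 to 92.3.

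All genes were fitted with edgeR 4.0.16 in R 4.3.3 (quasi-likelihood test, two-sided, TMM, filterByExpr). The filter asked for a CPM worth 10 counts in a library of median size, and for 15 counts in total. The CPM had to be met in as many libraries as the smaller group has, not in every library. The p-values were adjusted by Benjamini-Hochberg over the 11299 genes kept. The SE is the log2 fold change divided by the square root of F, and intervals use the fit's degrees of freedom. Log2 CPM used a prior count of 2. Alternatives used limma 3.58.1, DESeq2 1.42.0, other scalings, no filter, a replicate block and left-out libraries. Each p-value reflects the spread between pools, which may be technical. Coordinates and exon lengths are those of GENCODE vM21 (GRCm38, which is mm10), and promoters from RefSeq.

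The members and gene lists were chosen with earlier results of these data known. Named are the members, Adora2a, Cd8a and Pdcd1, the 2 tested genes of smallest p in each role of the list, the leading marker of each cell type and the 2 nearest profiles per member, without predicted gene models and at a mean log2 CPM of at least 3. Other genes were named after their values were seen. Some items are not reported here.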

Additional observations from a re-analysis of the deposited data

How the results depend on the processing

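None of the 7 members passed an adjusted p of 0.05 under any of the 12 alternatives. Over all genes, edgeR without a low-count filter called 5 genes higher (Gzmc, Gzme, Gzmf, Serpinb9b and Serpine2), DESeq2 4 of these (without Gzmf), and the fit without both libraries numbered 1 called 1 (Gzma). The edgeR fit that dropped anti-PD-L1 replicate 1 gave Pde4d a log2 fold change of 0.96. Dropping replicate 2 instead gave Prkar1a 0.76. Each of these fits rests on a single anti-PD-L1 library, so the sizes alone are given here. Of 84 refitted member fold changes 78 kept their direction, and of 239 of the other named genes 221 did. The 4 members that never turned were Ptger2, Pde4d, Creb1 and Prkar1a. Without both libraries numbered 1, the log2 fold change turned to 0.36 for Ptger4, 0.48 for Crem, 0.0016 for Adcy7, 0.56 for Pde8a, 0.041 for Rapgef4 and 0.14 for Crtc2. In limma-voom it turned to 0.049 for Crem and 0.062 for Adcy7. With 1 library left out it ran from -1.02 to 0.11 for Ptger4, -0.27 to 0.56 for Pde4b, -0.33 to 0.44 for Crem, -0.19 to 0.30 for Adora2a, -0.20 to 0.53 for Gnal, -0.58 to 0.38 for Adcy7, -1.59 to 0.12 for Pde8a, -2.04 to 0.49 for Rapgef4, -0.52 to 0.092 for Crtc2 and -0.20 to 0.84 for Nt5e. The median of the wider list was -0.47 at its lowest, when anti-PD-L1 replicate 2 was left out, and 0.38 at its highest, when replicate 1 was. In these 2 settings, the lone anti-PD-L1 library is assumed to vary like the controls. The causes were not tested.

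The labels give the replicate numbers 1 and 2 to both groups, without saying that they mark a shared batch. The replicate block left 0 members and 0 genes past the threshold, turned Adcy7 to 0.31 and gave Pde4d 0.69 ± 0.29 (SE). Deviations from the group means correlated at 0.33 between the libraries numbered 1 and 0.37 between those numbered 2, over genes, which are not independent. The deviations of the 2 anti-PD-L1 libraries mirror each other, so the same controls gave -0.33 and -0.37 with the other anti-PD-L1 library. Control IgG replicate 3 gave 0.16 with anti-PD-L1 replicate 2. Only 2 pairs exist, and their values rest on the same difference between the anti-PD-L1 libraries, so they are not separate observations. With 2 anti-PD-L1 libraries, the half-widths of the members' intervals set what could be seen, and a p that misses the threshold does not show equal levels.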
